A study of Mus musculus with 6 samples.

Results

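Transcripts of 42 genes of the mesenchyme and its extracellular matrix were followed in whole embryonic pancreases that carried or had lost *Jarid2* in their epithelium. The genes were taken from a fixed list by name, and each was represented by its brightest probe set among those annotated to that gene alone. The list was chosen with earlier results of these data known. On the arrays 41 of the 42 were measured, out of 18194 genes in all, and *Fbn1* was not analysed here. They comprised 5 fibrillar collagens, 5 genes of collagen VI and of collagens that decorate fibrils, 8 genes of fibronectin and elastic fibres, 2 crosslinking enzymes, 4 proteoglycans, 4 matricellular proteins, a protease and a protease inhibitor, 4 growth factor, binding protein and receptor genes, 4 surface and cytoskeleton genes and 3 transcription factors.

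The pancreas at e15.5 consists of a branching epithelium, which gives rise to acinar, duct and endocrine cells, and of mesenchyme that surrounds the branches. Mesenchymal cells secrete the collagens, elastic fibre proteins and proteoglycans of the interstitial matrix, and they supply growth signals such as *Fgf10* to the epithelium. *Jarid2* is a chromatin protein that associates with the Polycomb repressor complex PRC2.

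RNA was measured in 3 *Jarid2* WT pancreases, labelled wild-type, and in 3 *Jarid2* Δpanc pancreases, labelled as a pancreas-specific *Jarid2* knockout, all of them at e15.5 and with C57BL/6 given as the strain. In *Jarid2* Δpanc embryos a *Pdx1*-Cre transgene deletes both floxed *Jarid2* alleles, and the study describes this recombination as mosaic and restricted to the epithelium, so that mesenchymal cells are not the cells in which the gene was deleted. Whether the wild-type embryos carried the Cre transgene is not given in the sources used here. The samples are called controls 1 to 3 and knockouts 1 to 3 below. Titles number the embryos within each genotype. The study describes its e15.5 controls as littermates, but the litter of each sample is not given in the sources used here.

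Signals are array intensities on a linear scale. The mean of each array, after trimming 2% of values from either side, was scaled to the same value. A signal says nothing about the level of 1 gene against another. For comparisons, signals under a floor of 16 were set to 16 and log2 was taken, and the genotypes were compared with limma, with p-values adjusted over all genes. Values in parentheses after the signals of a gene are its log2 fold change, knockouts over controls, where given with its standard error (SE) and adjusted p.

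Some defining transcripts of mesenchyme were bright in every sample, and others were dim. The probe sets of *Col1a1*, *Col3a1*, *Pdgfra* and *Vim* had lowest signals of 1130, 10068, 518 and 5220 over the 6 arrays, on arrays whose median signal was 35 to 38. Of the 41 measured genes, 4 had a mean signal under 64, among them *Fgf10* at 18 to 32 and *Twist1* at 4 to 37. In this bulk tissue, fewer cells of a type and less RNA per cell cannot be told apart. The median log2 fold change of all genes was 0. *Jarid2* itself had signals of 335, 301 and 415 in the controls and of 392, 398 and 355 in the knockouts (log2 fold change 0.13, SE 0.14, limma adjusted p = 0.82), and where this probe set lies against the deleted exon was not established here, so that the signal does not check the deletion. The samples differed in sex-linked transcripts, which were not balanced between the genotypes. *Xist* was at 24 and 12 in controls 1 and 2, at 4390 in control 3 and at 4197 to 4905 in the knockouts, whereas the Y-linked *Eif2s3y* was at 560 and 506 in controls 1 and 2 and at 13 or less in the others. Control 3 alone held skeletal muscle transcripts: the summed signal of 20 muscle markers was 462, 510 and 20379 in the controls and 576 to 627 in the knockouts.

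No single mesenchyme or matrix gene passed the test between the genotypes after adjustment over all genes, and the group as a whole was described by counts and medians and not tested. Of the 41 measured genes, limma called 0 lower and 0 higher when p-values were adjusted over all genes (threshold 0.05), and 0% of all genes were called. At an unadjusted p under 0.05, 2 were higher and 0 were lower in *Jarid2* Δpanc, against 4.36% of all genes higher and 4.44% lower. The log2 fold change, *Jarid2* Δpanc over *Jarid2* WT, was positive for 33 and negative for 8 of the 41, with a median of 0.13 and a range from -0.38 to 0.51. Every knockout lay above every control for 2 genes, *Col12a1* and *Fbln1*, which is 4.88% of the 41 beside 5.71% of all genes. Every knockout lay below every control for none, beside 5.66% of all genes. The number of genes whose groups separated was therefore near the background.

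**Figure D1:**
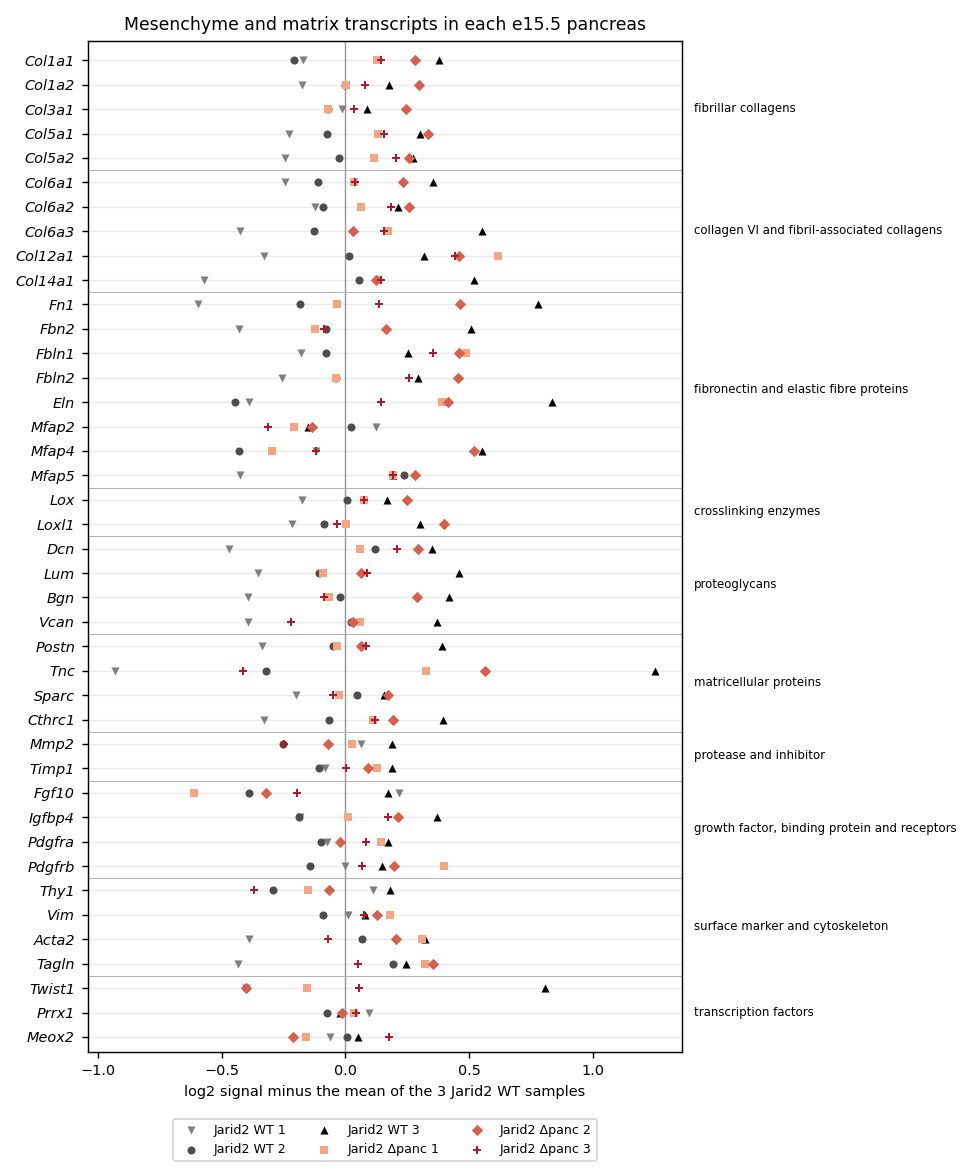
Log2 signal of the 41 measured genes in each of the 6 samples, as the difference from the mean of the 3 *Jarid2* WT samples, ordered by role. Grey and black symbols are *Jarid2* WT samples and orange and red symbols are *Jarid2* Δpanc samples, and the black upright triangles of *Jarid2* WT 3 lie at the right for most genes while the downward grey triangles of *Jarid2* WT 1 lie at the left.

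A pair of controls stood at opposite ends of these genes, with the knockouts between them. Control 1 had the lowest of the 6 signals for 26 of the 41 genes, against 20.5% of all genes, and control 3 had it for 0. Control 3 had the highest of the 6 for 23 genes (56.1%), against 16.1% of all genes, and it was the highest of the controls for 37 genes (90.2%), against 32.9% of all genes. For 23 of the 41 genes (56.1%), all knockouts lay between the lowest and the highest control, against 21.8% of all genes. The median log2 difference between control 3 and control 1 was 0.55, and the median standard deviation of log2 signal was 0.32 among the controls and 0.12 among the knockouts. Among all genes with a mean signal of at least 64 those standard deviations were 0.13 and 0.12. These shares are descriptions, because the genes are not independent of one another.

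The result therefore depended on the control with which the knockouts were compared. The mean of the knockouts exceeded control 1 for 35 genes and control 2 for 36, with median log2 differences of 0.35 and 0.17. It exceeded control 3 for 6 genes, with a median difference of -0.17. Control 3 is the control that resembled the knockouts in *Xist* and *Eif2s3y*, and it is also the one with muscle transcripts. The part of either in the level of the matrix genes was not tested.

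**Figure D2:**
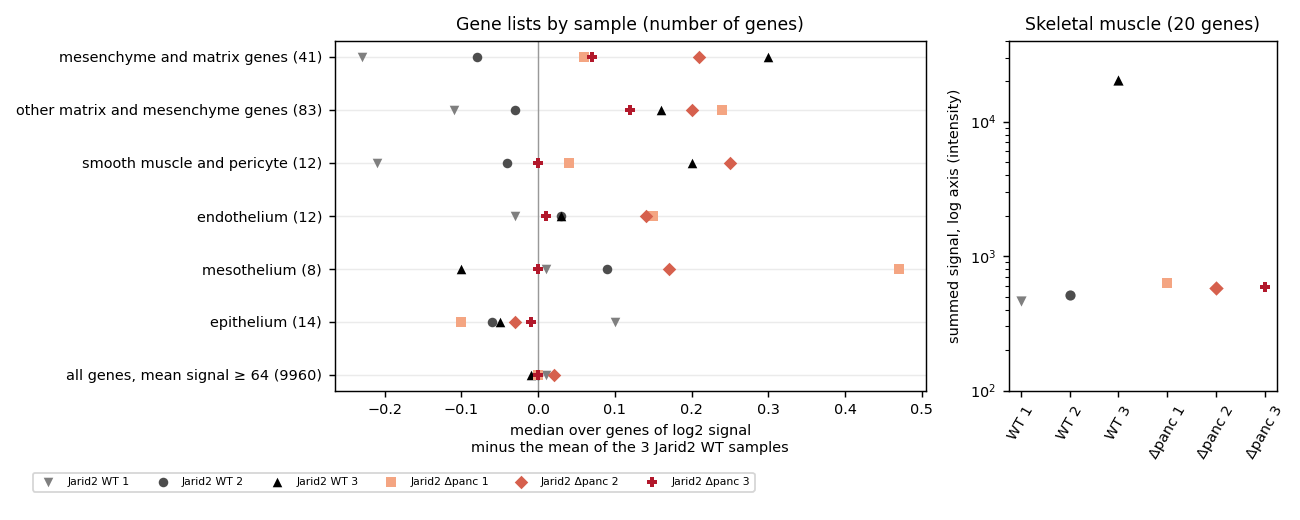
Left, median over the genes of each list of the log2 signal minus the mean of the 3 *Jarid2* WT samples, with 1 symbol per sample. Right, summed signal of the 20 skeletal muscle markers on a log axis, which is 20379 in *Jarid2* WT 3 and at most 627 in the other samples. The mesenchyme and matrix genes run from -0.23 in *Jarid2* WT 1 to 0.30 in *Jarid2* WT 3, with the knockouts at 0.06 to 0.21.

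Among the fibrillar collagens, which form the load-bearing fibrils of connective tissue, all 5 log2 fold changes were positive, between 0.07 and 0.21, and for none did the groups separate. *Col3a1*, the collagen of thin reticular fibrils, had signals of 10468, 10068 and 11229 in the controls and of 10081, 12520 and 10836 in the knockouts. Its groups overlapped throughout, with a log2 fold change of 0.07 (SE 0.10, adjusted p = 0.905). *Col5a1*, a chain of the collagen that nucleates fibrils, was at 1240, 1380 and 1792 in the controls and at 1590, 1831 and 1619 in the knockouts (0.21, SE 0.16, adjusted p = 0.817). Here the knockouts were above controls 1 and 2, and control 3 lay within their range. For both chains of type I collagen the knockouts likewise lay above controls 1 and 2. *Col1a1* was at 1160, 1130 and 1697 in the controls and at 1426, 1585 and 1441 in the knockouts. *Col1a2* was at 6967, 7854 and 8885 in the controls and at 7868, 9671 and 8312 in the knockouts. Their log2 fold changes were 0.18 and 0.13 (adjusted p = 0.82 for both), and that of *Col5a2*, the partner chain of *Col5a1*, was 0.19.

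Collagen VI forms beaded microfilaments around cells, and the collagens encoded by *Col12a1* and *Col14a1* sit on the surface of fibrils. *Col12a1* was the gene with the largest positive difference of the 41. Its signals were 216, 274 and 338 in the controls (276 ± 61.0, SD, n = 3) and 416, 373 and 369 in the knockouts (386 ± 26.1, SD, n = 3). All knockouts were above all controls, with a log2 fold change of 0.51 (SE 0.18), an unadjusted p of 0.0425 and an adjusted p of 0.54 over all genes in limma. A second, dimmer *Col12a1* probe set was at 91, 63 and 89 in the controls and at 101, 130 and 110 in the knockouts, so that its groups did not overlap either (0.50, SE 0.19). For *Col6a2* the controls had 1543, 1579 and 1944 and the knockouts 1755, 2007 and 1911 (0.17, SE 0.11, adjusted p = 0.793). Only controls 1 and 2 lay below its knockouts. *Col6a3* and *Col14a1* had a wide range of controls and a narrow range of knockouts. *Col6a3* was at 696, 858 and 1372 in the controls and at 1053, 957 and 1042 in the knockouts. *Col14a1* was at 405, 626 and 863 in the controls and at 660, 657 and 666 in the knockouts. In both genes the knockouts lay between controls 2 and 3, and *Col6a1* was arranged likewise.

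Fibronectin and the elastic fibre proteins had 6 positive and 2 negative differences among 8 measured genes. *Fbln1*, a calcium-binding glycoprotein of basement membranes and elastic fibres, had the lowest p of the 41 genes. It was at 220, 236 and 297 in the controls (251 ± 40.6, SD, n = 3) and at 349, 342 and 318 in the knockouts (336 ± 16.3, SD, n = 3). All knockouts were above all controls, with a log2 fold change of 0.43 (SE 0.13), an unadjusted p of 0.0224 and an adjusted p of 0.451 in limma. The second probe set of the gene did not separate the groups: it was at 134, 180 and 204 in the controls and at 160, 201 and 183 in the knockouts (0.09, SE 0.19). The probe sets of *Fbln1* therefore disagreed in size, and when the probe sets of a gene were averaged, the groups of *Fbln1* overlapped while those of *Lox* and *Vim* separated.

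**Figure D3:**
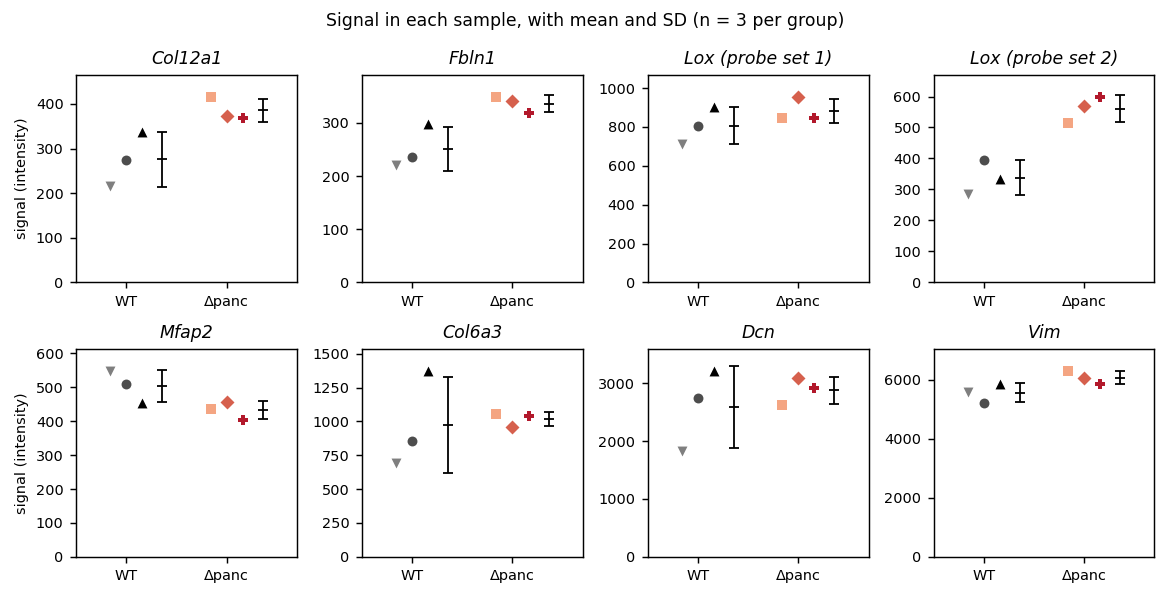
Signal (intensity, linear axis from 0) in each sample for 7 genes, with the 2 brightest *Lox* probe sets, and the mean with SD of the 3 samples of each group beside the symbols. Symbols are those of the other plots: downward triangle, circle and upright triangle for *Jarid2* WT 1, 2 and 3, and square, diamond and plus sign for *Jarid2* Δpanc 1, 2 and 3. *Col12a1*, *Fbln1* and the second *Lox* probe set have all knockouts above all controls, and *Col6a3* and *Dcn* have controls that span wider than the knockouts.

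*Fn1*, the fibronectin that cells bind through integrins, and *Eln*, the elastin of elastic fibres, had the widest controls of this class. *Fn1* was at 387, 516 and 1005 in the controls and at 572, 808 and 643 in the knockouts. *Eln* was at 173, 166 and 404 in the controls and at 297, 302 and 250 in the knockouts. For both the knockouts were above controls 1 and 2 and below control 3, and their log2 fold changes of 0.19 and 0.32 had SEs of 0.40. *Fbn2*, a fibrillin of microfibrils, was at 720, 917 and 1379 in the controls and at 890, 1086 and 913 in the knockouts (-0.02, SE 0.27, adjusted p = 1 in limma), and its second probe set gave 0.37. *Mfap2*, another microfibril protein, ran the other way from most of the list. It was at 548, 511 and 453 in the controls and at 435, 458 and 404 in the knockouts (-0.22, SE 0.09, adjusted p = 0.609). Control 3 was its lowest control, and knockout 2 exceeded that control. *Fbln2*, *Mfap4* and the dim *Mfap5* had log2 fold changes of 0.23, 0.03 and 0.22, with overlapping groups.

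*Lox*, the oxidase that crosslinks collagen and elastin, differed between its probe sets. The brightest was at 711, 807 and 901 in the controls and at 846, 955 and 845 in the knockouts (0.13, SE 0.11, adjusted p = 0.817). The second was at 284, 396 and 334 in the controls and at 514, 568 and 599 in the knockouts, all above the controls, with a log2 fold change of 0.74 (SE 0.14, adjusted p = 0.315 over 34958 probe sets in limma). This probe set was picked out after its values were seen. Among the 97 probe sets of the measured genes, 64 had a mean signal of at least 64. The brightest probe set apart, 4 of these separated the groups upward and 0 downward: those of *Col12a1* and *Lox* and a pair for *Vim*. The share over all probe sets was not computed here, and probe sets of 1 gene are not independent. The count is therefore a description without a background. Of 20 genes with at least 2 such probe sets, 14 had the same sign in all of them, and *Bgn*, *Fbn2*, *Mmp2*, *Pdgfrb*, *Prrx1* and *Vcan* had both signs. *Loxl1*, a relative of *Lox* that acts on elastin, was at 314, 343 and 450 in the controls and at 365, 481 and 356 in the knockouts (0.12).

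The small leucine-rich proteoglycans and versican had log2 fold changes between -0.04 and 0.19, and no groups separated. Decorin (*Dcn*), which binds collagen fibrils, was at 1821, 2740 and 3210 in the controls and at 2628, 3088 and 2913 in the knockouts (0.19, SE 0.24, adjusted p = 0.884). Control 1 was the low sample and the knockouts lay within the range of the controls. *Lum*, whose product lumican also binds fibrils, was at 979, 1161 and 1717 in the controls and at 1172, 1304 and 1329 in the knockouts (0.02). *Bgn*, an X-linked gene, was at 671, 867 and 1177 in the controls and at 842, 1078 and 831 in the knockouts (0.05). *Vcan*, the large proteoglycan versican, was at 354, 473 and 601 in the controls and at 484, 475 and 399 in the knockouts (-0.04). In all 4 genes the order of the controls was the same, from control 1 to control 3.

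Matricellular proteins modulate the contact of cells with matrix, and their 4 log2 fold changes lay between 0.03 and 0.16 with overlapping groups. *Tnc*, tenascin C, had the widest ratio between controls of the 41 genes once signals were floored, at 51, 78 and 232, and knockouts at 122, 144 and 73 (0.16, SE 0.67, adjusted p = 1). Its signal in control 3 was 4.55 times that in control 1. *Sparc*, a collagen-binding glycoprotein, was at 3496, 4153 and 4473 in the controls and at 3947, 4524 and 3884 in the knockouts (0.03, SE 0.12, adjusted p = 1). Periostin (*Postn*) was at 1396, 1702 and 2309 in the controls and at 1722, 1845 and 1870 in the knockouts (0.04), and *Cthrc1*, a secreted collagen triple helix protein, had 0.14.

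The gelatinase *Mmp2* and the inhibitor *Timp1* had log2 fold changes of -0.10 and 0.07, with 95% intervals from -0.48 to 0.28 and from -0.18 to 0.33. *Mmp2* was at 325, 261 and 355 in the controls and at 317, 296 and 262 in the knockouts (-0.10, SE 0.14, adjusted p = 0.919). *Timp1*, also X-linked, was at 116, 114 and 140 in the controls and at 134, 131 and 123 in the knockouts (0.07). For each the knockouts lay within the range of the controls.

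Among signalling genes of the mesenchyme, *Pdgfrb* and *Pdgfra* encode receptors for platelet-derived growth factors. *Pdgfrb* was at 936, 848 and 1038 in the controls and at 1236, 1075 and 983 in the knockouts (0.22, SE 0.12, adjusted p = 0.715), with knockout 3 inside the controls. *Pdgfra* was at 528, 518 and 626 in the controls and at 614, 547 and 589 in the knockouts (0.07). *Igfbp4*, which binds insulin-like growth factors, was at 1355, 1349 and 1991 in the controls and at 1550, 1783 and 1734 in the knockouts (0.13, SE 0.18, adjusted p = 0.905). Control 3 was above all knockouts for *Pdgfra* and *Igfbp4*. *Fgf10*, the mesenchymal growth factor for pancreatic progenitors, was dim, at 32, 21 and 31 in the controls and at 18, 22 and 24 in the knockouts. Its log2 fold change of -0.38 was the lowest of the list (SE 0.22, adjusted p = 0.736), at signals near the value of 16 to which lower ones were set.

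*Vim*, the intermediate filament protein of mesenchymal cells, had small replicate spread. It was at 5602, 5220 and 5863 in the controls and at 6298, 6072 and 5848 in the knockouts (0.13, SE 0.06, adjusted p = 0.633), so that only knockout 3 fell below a control. Its other probe sets were at 4192, 4352 and 4592 in the controls against 4678, 5065 and 4608 in the knockouts, and at 2963, 2791 and 3094 against 3588, 3523 and 3302. Neither of these overlapped, with log2 fold changes of 0.13 and 0.24 (adjusted p = 0.662 and 0.372 over all probe sets in limma). *Tagln*, an actin-binding protein of contractile cells, was at 125, 193 and 200 in the controls and at 211, 216 and 175 in the knockouts (0.24, SE 0.22, adjusted p = 0.817). *Acta2*, the smooth muscle actin, was at 941, 1292 and 1538 in the controls and at 1527, 1421 and 1174 in the knockouts (0.15), and the surface protein *Thy1* had -0.20. Of the transcription factors, *Prrx1*, a homeobox gene of mesenchyme, was at 317, 282 and 292 in the controls and at 304, 294 and 306 in the knockouts (0.02, SE 0.05, adjusted p = 0.985). Its SE was the lowest of the 41, and control 3 was not its highest control. *Twist1* and *Meox2* were dim, with log2 fold changes of -0.17 and -0.06.

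**Figure D4:**
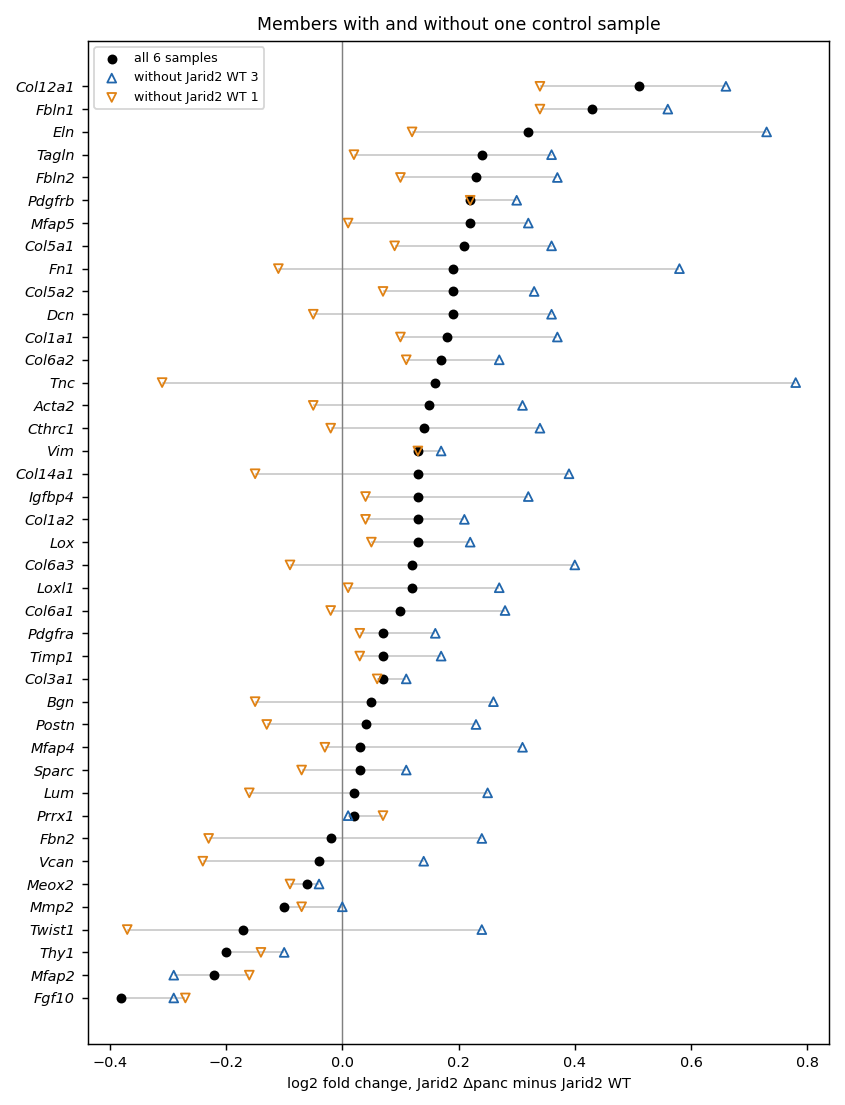
Log2 fold change (*Jarid2* Δpanc minus *Jarid2* WT) of the 41 measured genes with all 6 samples (black), without *Jarid2* WT 3 (blue upright triangles) and without *Jarid2* WT 1 (orange downward triangles). The median is 0.13 with all samples, 0.27 without *Jarid2* WT 3 and -0.02 without *Jarid2* WT 1.

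Leaving out single controls moved most of these values. Without control 3, 36 of the 41 log2 fold changes were positive, with a median of 0.27, and all knockouts lay above both remaining controls for 22 genes (53.7%), beside 10.8% of all genes. They included 4 of 5 fibrillar collagens, all 5 of the collagen VI and fibril-associated class, *Fn1*, *Eln*, *Fbln1*, *Lox*, *Loxl1*, *Lum*, *Postn*, *Cthrc1*, *Timp1*, *Igfbp4*, *Pdgfra*, *Pdgfrb* and *Vim*. *Mfap2* was the 1 gene whose knockouts all lay below, beside 10.5% of all genes. At an unadjusted p under 0.05 in limma 13 were higher, beside 4.91% of all genes, and the lowest adjusted p was 0.18. The controls that remain in this comparison both carried Y-linked transcripts and the knockouts did not, so that genotype and sex cannot be told apart in it. With all samples, only control 3 resembled the knockouts in *Xist* and *Eif2s3y*, and it held muscle transcripts. Sex was therefore not balanced between the genotypes there either, and its part was not tested.

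Without control 1, 20 of the 41 log2 fold changes were positive, the median was -0.02, and all knockouts lay above both remaining controls for 3 genes, *Col12a1*, *Fbln1* and *Prrx1* (7.32%, beside 9.88% of all genes). *Col12a1* had 0.66 without control 3 and 0.34 without control 1, and *Fbln1* had 0.56 and 0.34. These were the 2 genes above all controls with all samples, so that leaving out 1 sample could not make their groups overlap. *Tnc* turned from 0.78 to -0.31 between the same settings, *Fn1* from 0.58 to -0.11 and *Dcn* from 0.36 to -0.05.

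Promoter sequence was examined in the RefSeq promoter windows used here (build GRCm38.p6), which matched 23 of the 41 by symbol. Promoters of the other genes, *Col12a1* among them, were not analysed here. In the 300 bases around each start, the letters TATAAA on either strand occurred in 7 of the 23 genes (30.4%), against 15.7% of 27025 genes, and CCAAT in 7 (30.4%), against 41.1%. The TATAAA genes were *Col3a1*, *Igfbp4*, *Meox2*, *Postn*, *Tnc*, *Twist1* and *Vim*, and the CCAAT genes were *Col1a2*, *Mfap2*, *Postn*, *Timp1*, *Twist1*, *Vcan* and *Vim*. A match describes these letters and not a bound site. The 150 bases before the start are shown for *Fbln1* (chr15:85205799-85205948), which separated the groups, for *Col1a2* (chr6:4505468-4505617) as an interstitial collagen that did not, and for *Vim* (chr2:13574161-13574310), whose additional probe sets did. For *Fbln1*, which has 2 windows, only the first is shown. All stretches shown are on the plus strand. Capitals mark TATAAA and CCAAT, the latter read as ATTGG where it lies on the minus strand.
Fbln1: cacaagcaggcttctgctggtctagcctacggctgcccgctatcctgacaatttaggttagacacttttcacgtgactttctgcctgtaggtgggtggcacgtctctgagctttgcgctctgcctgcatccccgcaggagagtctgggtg
Col1a2: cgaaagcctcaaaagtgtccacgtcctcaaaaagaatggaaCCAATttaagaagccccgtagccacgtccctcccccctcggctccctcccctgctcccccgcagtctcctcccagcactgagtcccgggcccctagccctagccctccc
Vim: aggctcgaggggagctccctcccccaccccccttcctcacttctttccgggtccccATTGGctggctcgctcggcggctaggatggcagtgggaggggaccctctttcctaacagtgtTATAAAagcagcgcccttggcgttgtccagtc

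Other matrix and mesenchyme genes from a second list, 83 of 87 measured, also had mostly positive differences. This list too was chosen with earlier results of these data known, and it was read on the same arrays. It is therefore not independent support for the first. Of the 83, 70 had positive log2 fold changes, with a median of 0.17, and limma called 0 after adjustment over all genes. At an unadjusted p under 0.05, 7 of the 83 were higher and 2 were lower, beside 4.36% and 4.44% of all genes. All knockouts were above all controls for 11 genes (13.3%, beside 5.71% of all genes) and below for 2 (2.41%, beside 5.66%). Without control 3 these counts were 32 (38.6%, beside 10.8% of all genes) and 3 (3.61%, beside 10.5%). Control 3 was the highest control for 60.2% of them.

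**Figure D5:**
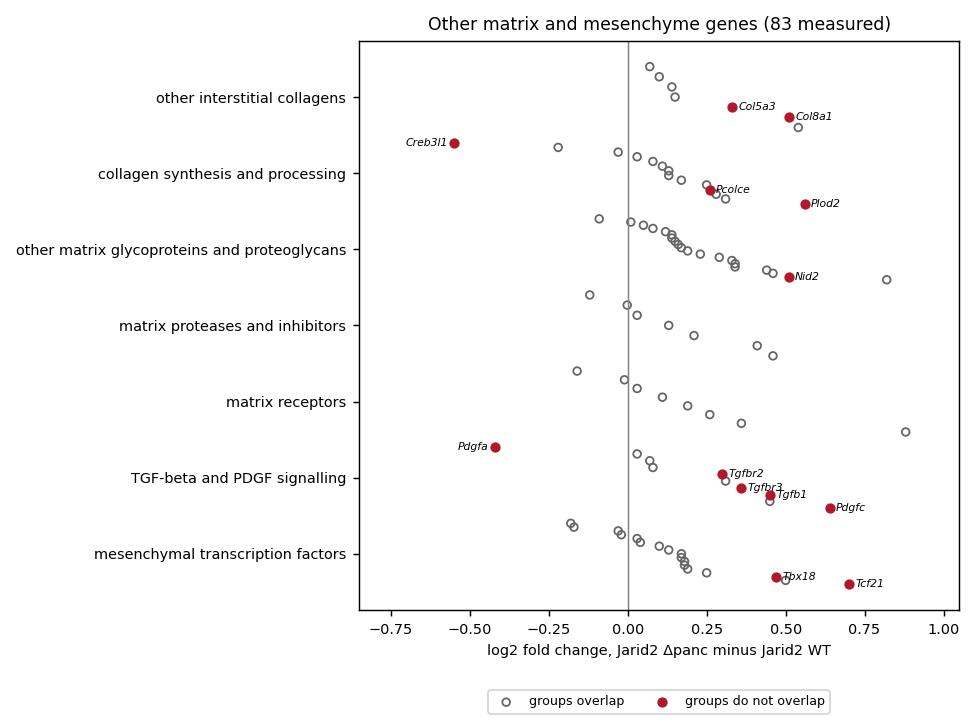
Log2 fold change (*Jarid2* Δpanc minus *Jarid2* WT) of 83 further matrix and mesenchyme genes by role, each point a gene, staggered vertically for legibility. Filled and named points are the 13 genes whose groups do not overlap, 11 above and 2 below, and 70 of the 83 points lie above 0.

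Within this list *Nid2*, which links basement membrane proteins, separated the groups most evenly, at 324, 339 and 380 in the controls and 493, 494 and 493 in the knockouts (0.51, SE 0.06, adjusted p = 0.218). *Plod2*, the lysyl hydroxylase of collagen telopeptides, was at 188, 197 and 201 in the controls and at 260, 272 and 336 in the knockouts (0.56, SE 0.11, adjusted p = 0.31). *Col8a1*, a short-chain collagen, was at 78, 91 and 112 in the controls and at 127, 144 and 125 in the knockouts (0.51, SE 0.15). The PDGF ligands ran in opposite directions, with their groups apart. *Pdgfc* was at 126, 139 and 178 in the controls and at 245, 198 and 241 in the knockouts (0.64, SE 0.17, adjusted p = 0.412). *Pdgfa*, singled out after its values were seen, was at 542, 615 and 547 in the controls and at 439, 428 and 401 in the knockouts (-0.42, SE 0.07, adjusted p = 0.25). *Creb3l1*, a transcription factor of secretory cells that make collagen, had all knockouts below all controls, at 87, 112 and 89 against 60, 76 and 61 (-0.55, SE 0.15, adjusted p = 0.416). *Col13a1*, *Ltbp1*, *Mmp23*, *Adam12*, *Itga8*, *Mrc2*, *Tgfb3* and *Hand2* had log2 fold changes between 0.19 and 0.88 with overlapping groups, and *Tcf21*, a factor of visceral mesenchyme, had 0.70 with its groups apart.

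Markers of other cell types were read in the same samples. The 14 epithelium markers had a median log2 fold change of -0.08, with summed signals of 26124 to 28940 in the controls and 23956 to 26277 in the knockouts. All knockouts were above all controls for 2 of them (14.3%, beside 5.71% of all genes) and below for 2 (14.3%, beside 5.66%), among them *Cldn6* at 0.35 and *Spint2* at -0.24. Per sample, the epithelium median was 0.10, -0.06 and -0.05 in the controls and -0.10, -0.03 and -0.01 in the knockouts. The matrix genes had -0.23, -0.08 and 0.30 in the controls and 0.06, 0.21 and 0.07 in the knockouts, so that control 1 was highest in the former and lowest in the latter, and the other samples did not run in opposite order. The 12 smooth muscle and pericyte markers followed the matrix genes among the controls, with medians of -0.21, -0.04 and 0.20 and a median log2 fold change of 0.06. Of these 12, 2 lay at the floor in every sample. All knockouts were above all controls for 1 of the 12 (8.33%, beside 5.71% of all genes) and below for 0 (beside 5.66%). The highest log2 fold change of the 12 was 0.62. Among those with a mean signal of at least 64, the largest in size were 0.31 and -0.29. They belonged to *Kcnj8*, a pericyte potassium channel, and *Des*, the desmin of muscle cells. The 20 skeletal muscle markers had a median of -1.46, and all 20 were highest in control 3, where *Myh3* was at 1540 and *Actc1* at 4160, against at most 32 and 78 elsewhere. Medians were 0.27 for 8 mesothelium, 0.09 for 12 endothelium, 0.14 for 7 cartilage and bone, 0.18 for 6 neural and glia and 0.29 for 9 macrophage markers, and none of any of these lists passed an adjusted p under 0.05. By gene, among those with a mean signal of at least 64, the largest log2 fold changes in size were 0.41 and 0.30 for the mesothelial uroplakins *Upk3b* and *Upk1b*, 0.25 and 0.22 for *Cldn5* and *Egfl7* of endothelium, 0.20 and 0.14 for *Acan* and *Col9a1* of cartilage, 0.39 and 0.22 for *Ednrb* and *Stmn2* of neural cells, and 0.71 and 0.51 for *Lyz2* and *C1qb* of macrophages. Of the 9 macrophage markers, 2 had all knockouts above all controls (22.2%, beside 5.71% of all genes). For 1 all knockouts lay below (11.1%, beside 5.66%), and the lowest log2 fold change was -0.37. The part of any of these cell types in the level of the matrix genes was not tested.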

How the data were processed

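RNA of 3 *Jarid2* WT and 3 *Jarid2* Δpanc e15.5 pancreases was amplified from 50 ng of total RNA through a double cycle of cDNA synthesis and hybridized to Affymetrix mouse genome arrays. Deposited intensities cover 45101 probe sets, and the submitters' processing notes credit them to MAS5 without a version. They are linear whole numbers with a trimmed mean of 150 on each array after trimming 2% of values from either side, which was checked here. For its own analysis the study used RMA and LIMMA, whose starting scanner files were not used here. A description label names islets in glucose, against all other labels, and the latter were followed.

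Signals were floored at 16 and put on the log2 scale, which understates differences of dim genes. Of 35890 probe sets in the annotation, 34958 carried 1 symbol, and the brightest stood for each of 18194 genes. The 932 probe sets with several symbols and the 9211 outside the annotation were left out. The genotypes were contrasted by lmFit and eBayes of limma (version 3.58.1, run in R 4.3.3), with 4 residual and 0.604 prior degrees of freedom and Benjamini-Hochberg adjustment over all genes. The fit was tested on simulated data. Promoter letters came from RefSeq.

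The list of genes, their roles and the comparison lists were chosen with earlier results of these data known. Signals per sample were given for the gene with the highest mean and that with the largest log2 fold change of each role (mean signal at least 64) and for genes whose groups separated, further lists being represented by up to 2 genes per role. Additional genes and probe sets were named after their values were seen. Alternatives covered each sample left out, the replicate number as a block, quantile normalization and median centring, the floor, the removal of dim genes, how probe sets were chosen and the variance model. Detection calls, scan dates and batches were not at hand, and the number of arrays limits the precision.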

Additional observations from a re-analysis of the deposited data

How the results depend on the processing

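Over 16 alternatives, 0 of the 41 genes passed an adjusted p under 0.05 in limma, and the lowest adjusted p was 0.18. Of 256 values of the 16 genes chosen by rule, 240 kept their sign. The replicate block, the variance model, the removal of dim genes and a lower floor could not change these log2 fold changes. Part of this count was therefore fixed in advance, and it does not measure stability. Over all genes, 0 were lower and 0 higher with all samples, and the counts ranged from 0 to 8 lower and from 0 to 4 higher when 1 sample was left out. Quantile normalization gave 3 lower and 1 higher, and genes with a mean signal of at least 64 alone gave 3 lower. The number of measured genes with all knockouts below all controls, 0 with all samples, ranged from 0 to 3 when 1 sample was left out and was 1 with median centring (*Mfap2*) and 1 with the mean over probe sets (*Prrx1*). The number above, 2, ranged from 2 to 22, with 22 without control 3 and 5 without knockout 3. The highest number below, 3, came without control 2 (7.32%, beside 9.76% of all genes). The 22 above were 53.7%, beside 10.8% of all genes. For the fits without a knockout or with other processing, the share of all genes was not computed here, so that those counts have no background. The median log2 fold change of 0.13 ranged from -0.02 to 0.27 over the samples left out and from 0.10 to 0.14 in the other alternatives.

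Among the 16 genes chosen by rule, leaving out 1 sample turned the sign of 6: *Col3a1* ranged from -0.02 to 0.14, *Fbn2* from -0.23 to 0.24, *Dcn* from -0.05 to 0.36, *Sparc* from -0.07 to 0.11, *Tnc* from -0.31 to 0.78 and *Prrx1* from -0.01 to 0.07. Over all 41, the number of positive log2 fold changes, 33 with all samples, ranged from 20 to 36 over the settings. With the mean over probe sets, *Col5a1* was -0.0037, *Fbn2* 0.18, *Mmp2* 0.02 and *Prrx1* -0.14, and with quantile normalization *Fbn2* was 0.02. The cause of these turns was not tested. The replicate number as a block gave 0 adjusted calls in either direction and left the median at 0.13, as it must in this balanced design. At an unadjusted p under 0.05 it gave 0 of the 41 higher and 1 lower, in place of 2 and 0. The share of all genes in that fit was not computed here. Same-numbered samples did not deviate together (correlations -0.066, -0.042 and -0.029). The litter of each sample is not given, so that whether the numbers pair the samples is not known.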

Other observations

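Knockout 1 stood apart for some genes of the comparison lists. The integrin *Itga8* was at 91, 124 and 178 in the controls and at 625, 150 and 133 in the knockouts, and *Tcf21* was at 191, 258 and 207 against 550, 297 and 269. *Lyz2*, the lysozyme of macrophages, was at 200, 380 and 229 in the controls and at 1035, 333 and 222 in the knockouts. In knockout 1 the median of the 8 mesothelium markers was 0.47 above the mean of the controls on the log2 scale and that of the 9 macrophage markers 0.50, against at most 0.17 and 0.06 in knockouts 2 and 3. The 41 mesenchyme and matrix genes did not share this, with medians of 0.06, 0.21 and 0.07 in the 3 knockouts.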
